A study of Mus musculus with 4 samples.

Results

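The control RNA hybridised on the arrays of food-deprived fetal brain gave higher signals of 11 skeletal muscle, 3 fat, 2 bone and 2 pituitary genes than the control RNA on the arrays of food-restricted fetal brain. The adipocyte fatty acid-binding protein gene Fabp4 was 6.98-fold higher, the fast skeletal muscle myosin light chain gene Myl1 5.11-fold, the growth hormone gene Gh 3.36-fold and the secreted bone matrix protein gene Spp1 2.69-fold. They were 18 of the 21 genes that were at least 1.5-fold higher in both dyes, 0.124% of the genes measured. The pituitary list as a whole had no such lean, with 4 of 13 measured members above 0 in both dyes and 6 below. These tissue lists were chosen with earlier results of these data known, so the count of 18 is a description and tests nothing. The treated channels of the same arrays held the food-deprived and the food-restricted pools. There the median log2 difference of the 21 higher genes was -0.04, against 1.43 between the controls, by which the 21 were chosen. In the treated channels 0 of the 21 differed by at least 1.5-fold in both dyes. With 0.391% of all genes measured there past that threshold, 21 genes would seldom include any. A further 15 genes (0.0882%) were at least 1.5-fold lower, and all 15 were lower in both dyes of the treated channels too. A difference of both inputs of an array and one of the array itself cannot be told apart. Between 1 and 14 of the 15 passed under 6 other normalisations and background corrections.

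The comparison sets control RNA against control RNA. RNA of whole fetal brain from C57BL/6J mice was measured on 4 Agilent 2-colour arrays with probes of 60 bases. Control dams ate chow ad libitum. Dams of the food deprivation group (FD) had no food overnight on gestation day 17, and dams of the food restriction group (FR) were given 50% of the chow that controls ate from gestation day 10 to 17. Section on gestation day 18 is stated for FR and implicit for FD. Each pool held RNA of 5 fetuses, and each treated pool shared an array with control RNA, once in each dye. On arrays FD 1 and FR 1 the control was labelled with Cy3, and on FD 2 and FR 2 with Cy5. The labels do not say whether the FD and FR arrays carried the same control pool, from how many litters the fetuses came, or their sex. Control of FD and control of FR below mean the control RNA on the respective arrays.

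The control channel of the FD array was set against the control channel of the FR array of equal dye, after the channels had been normalised between arrays. A probe entered when it was well above background in the control channel of all 4 arrays, which held for 28568 of 41174 probes and for 19286 of 28104 genes. After outlier-flagged spots and spots in a bright patch were left out, 23799 probes and 16998 genes had a value on all 4 arrays. Of these probes 1 stood for each gene. In the control channel, 71.4% of the 43379 spots were well above background on FD 1, 81.0% on FD 2, 75.6% on FR 1 and 85.3% on FR 2. Each control is 1 pool on 2 arrays, so n = 1 and the error is technical. No difference was tested, and variation between pools or arrays cannot be told apart from other differences between the inputs.

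Fetal skeletal muscle builds its contractile apparatus from isoforms of actin, myosin and troponin that change as fibres mature, with embryonic and perinatal myosin heavy chains ahead of the adult fast ones. Brown fat, which produces heat through the uncoupling protein Ucp1, differentiates in the neck and back before birth. The anterior pituitary lies below the hypothalamus and makes growth hormone and peptides cut from pro-opiomelanocortin, and the skull bones around the brain make an osteoblast matrix that contains osteopontin and osteocalcin. None of these tissues is part of the brain itself, although neurons of the hypothalamus also make Pomc.

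Over the 16998 genes, the log2 difference, control of FD minus control of FR, had a median of -0.01 and an SD of 0.213 in Cy3, and a median of 0.01 and an SD of 0.159 in Cy5. The mean of both dyes lay between -0.436 at the 1st percentile and 0.412 at the 99th. From the disagreement between dyes, the technical SD of a gene's mean difference was 0.091. A shift between FD and FR arrays that both dyes share does not enter this value. Across genes, which are not independent replicates and share their arrays, the dyes correlated at r = 0.555. Counted in Cy3 without regard to Cy5, 299 genes differed by at least 1.5-fold (0.58 on the log2 scale), counted in Cy5 108, and 0 did so in opposite ways in both dyes. At least 1.5-fold in both dyes were 36 genes, 0.212% of those measured, with 21 higher in the control of FD (0.124%) and 15 lower (0.0882%). Requiring both dyes bears on single genes: the neuronal RNA-binding protein gene Elavl3 differed by 1.25 in Cy3 and -0.01 in Cy5, and did not pass.

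**Figure D1:**
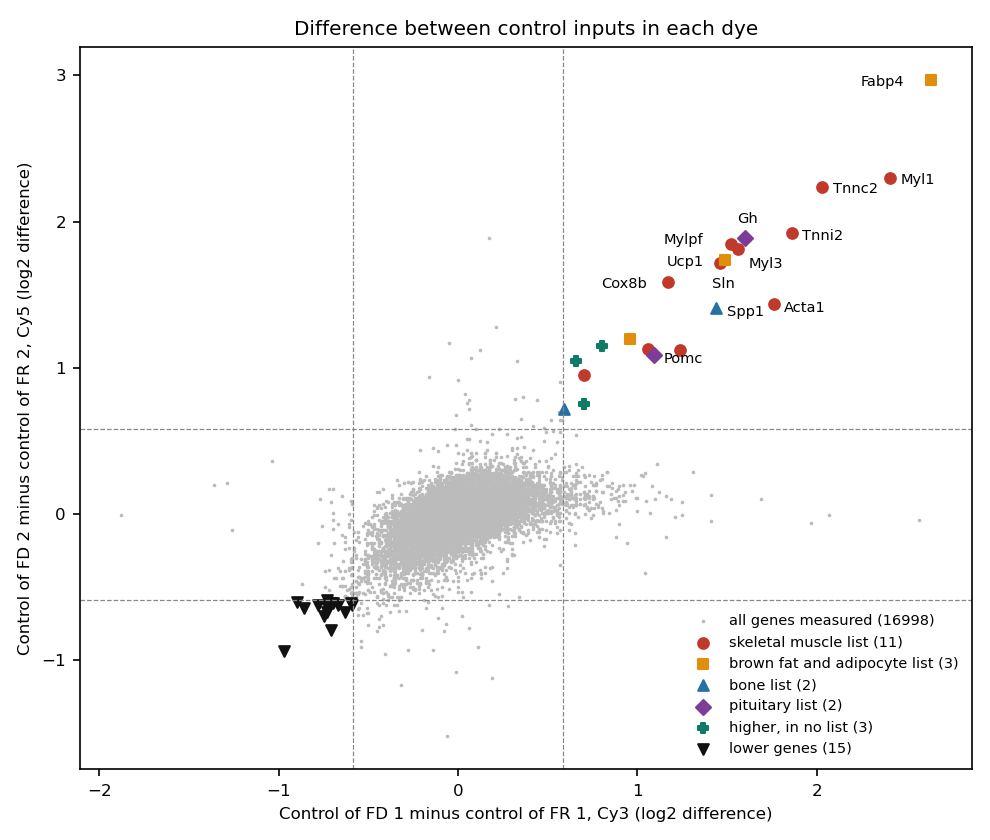
Difference between control inputs in each dye, 1 point per gene: Cy3 (FD 1 minus FR 1) on the horizontal axis and Cy5 (FD 2 minus FR 2) on the vertical, both in log2, with dashed lines at 1.5-fold. The 21 genes at upper right carry the colour of their tissue list, with Fabp4 at 2.64 and 2.97 farthest from 0, and the 15 lower genes lie close to the lines.

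The genes named below were measured by probes whose first 30 bases, printed 5′ to 3′, identify 6 of them, 1 or 2 from each tissue. The positions, from the array files on build mm9, are chr3:10204452-10204511 for Fabp4, chr1:66970948-66971007 for Myl1, chr2:164602661-164602720 for Tnnc2 and chr11:106162492-106162735 for Gh, all on the minus strand. Those of Pomc, chr12:3960413-3960472, and Spp1, chr5:104869788-104869847, are on the plus strand. The files do not say whether a probe lies in coding or untranslated sequence, and the interval of Gh is longer than its probe.
Fabp4: aagaggcctggatggaaatttgcatcaaac
Myl1: ttataagccttgagttttcatgacaaacat
Tnnc2: acgggaaaggctgctcctttgggctctgtg
Gh: tggctgctgacacctacaaagagttcgagc
Pomc: tggtgacgctcttcaagaacgccatcatca
Spp1: cttagtctgttgtttcatgcaaacaccgtt

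The skeletal muscle list held most of the higher genes. Of its 60 members 55 were measured. In the control of FD 11 were higher and 0 lower, where 0.124% and 0.0882% of all genes were. The median difference of the 55 was 0.24 (0.21 in Cy3 and 0.28 in Cy5), against 0.00 over all genes. In 39 members the difference was above 0 in both dyes and in 11 below, against 34.1% and 34.9% of all genes. In bulk RNA, fewer cells of a type and less RNA per cell cannot be told apart. Between the treated channels 0 of 51 measured members passed, where 0.391% of all genes did, and their median was -0.08.

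Myosin chains, which form the thick filament, included 5 of the 11 higher muscle genes. Myl1 had log2 signals of 10.76 (Cy3) and 10.62 (Cy5) in the control of FD and of 8.35 and 8.33 in the control of FR. The mean difference was 2.35 ± 0.06, where the error is the distance of each dye's difference from their mean. In the treated channels Myl1 was at 7.85 and 7.68 in the FD pool and 8.35 and 8.36 in the FR pool, so the control of FD was the only input of the 4 above 8.36. Mylpf, the phosphorylatable light chain of fast fibres, was at 9.23 and 9.59 against 7.71 and 7.74 (1.69 ± 0.16). Myl3, the light chain of slow and ventricular fibres, was at 8.49 and 8.68 against 6.92 and 6.88 (1.68 ± 0.12), but a second Myl3 probe with a mean log2 signal of 7.57 gave differences of -0.12 and -0.13. The probes of Myl3 therefore disagreed, and its difference rests on 1 of them.

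The myosin heavy chains of developing fibres passed and those of mature fibres did not. Embryonic Myh3 was at 8.58 and 8.72 against 7.34 and 7.60 (1.18 ± 0.06), and its second probe gave 0.90. Perinatal Myh8 was at 10.43 and 10.37 against 9.38 and 9.25 (1.09 ± 0.03). Among the adult chains, fast Myh4 differed by 0.57 and 0.90, just under 1.5-fold in Cy3, fast Myh2 by 0.42 and 0.60, fast Myh1 by 0.42 and 0.25, and slow Myh7 by 0.04 and 0.03. Whether the developing chains differed more than the adult ones was not tested. Over the 11 myosin chain genes the median difference was 0.74, with a range from -0.08 to 2.35. The 5 genes of myosin-binding proteins and of the Z-disc alpha-actinins gave 0 past 1.5-fold and a median of 0.19.

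Genes of the thin filament, where troponin and tropomyosin regulate actin, included 4 of the 11 higher muscle genes. The fast troponin C gene Tnnc2 was at 10.95 and 10.87 in the control of FD and 8.93 and 8.64 in the control of FR (2.13 ± 0.11). The fast troponin I gene Tnni2 was at 10.38 and 10.32 against 8.53 and 8.40 (1.89 ± 0.03). Skeletal alpha-actin, Acta1, was at 10.15 and 10.08 against 8.39 and 8.64 (1.60 ± 0.16). In each of these the values of the inputs did not overlap, which the choice of genes past 1.5-fold in both dyes largely fixed. The fast troponin T gene Tnnt3 differed by 0.82, and by 1.09 on its second probe. Their slow or cardiac relatives did not pass, with Tnnt1 at 0.53 and 0.30, Tnnc1 at 0.06 and 0.28, Tnni1 at -0.02 and 0.24 and Tnnt2 at 0.10 and 0.29. The median of the 11 thin filament genes was 0.38, and none was below 0 in its mean.

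Sarcolipin, Sln, which inhibits the calcium pump of the sarcoplasmic reticulum, was the only one of 9 measured calcium handling and excitation genes to pass, at 9.20 and 9.23 against 7.74 and 7.51 (1.59 ± 0.13). The calcium pump Atp2a1, the ryanodine receptor Ryr1 and the calcium channel subunit Cacna1s differed by -0.02, -0.09 and -0.05, and the median of the group was -0.02. Among 6 metabolic genes, with a median of 0.42, the cytochrome c oxidase subunit gene Cox8b, used in muscle, heart and brown fat, passed at 7.36 and 7.79 against 6.19 and 6.21 (1.38 ± 0.21). Creatine kinase, Ckm, differed by 0.56 and 0.70 and fell just short in Cy3. The 4 measured transcription factors of the lineage lay on the other side of 0. Myod1, which commits cells to the muscle lineage, differed by -0.35 and -0.36, the satellite cell factor Pax7 by -0.22 and -0.32, Myog by -0.10 and -0.14 and Myf6 by -0.08 and -0.06. None of these 4 passed, and their log2 signals were between 6.15 and 7.07. The treated channels leaned the same way, with Myod1 at -0.38 and -0.36, Pax7 at -0.34 and -0.29 and Myog at -0.26 and -0.29. Under the other normalisations and background corrections the median of the 4 between controls ran from -0.72 to -0.12, with up to 3 of them at least 1.5-fold lower and at most 1 at or above 0. Myf5, Chrng, Casq1, Klhl41 and Myoz2 were not well above background in all 4 control channels.

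**Figure D2:**
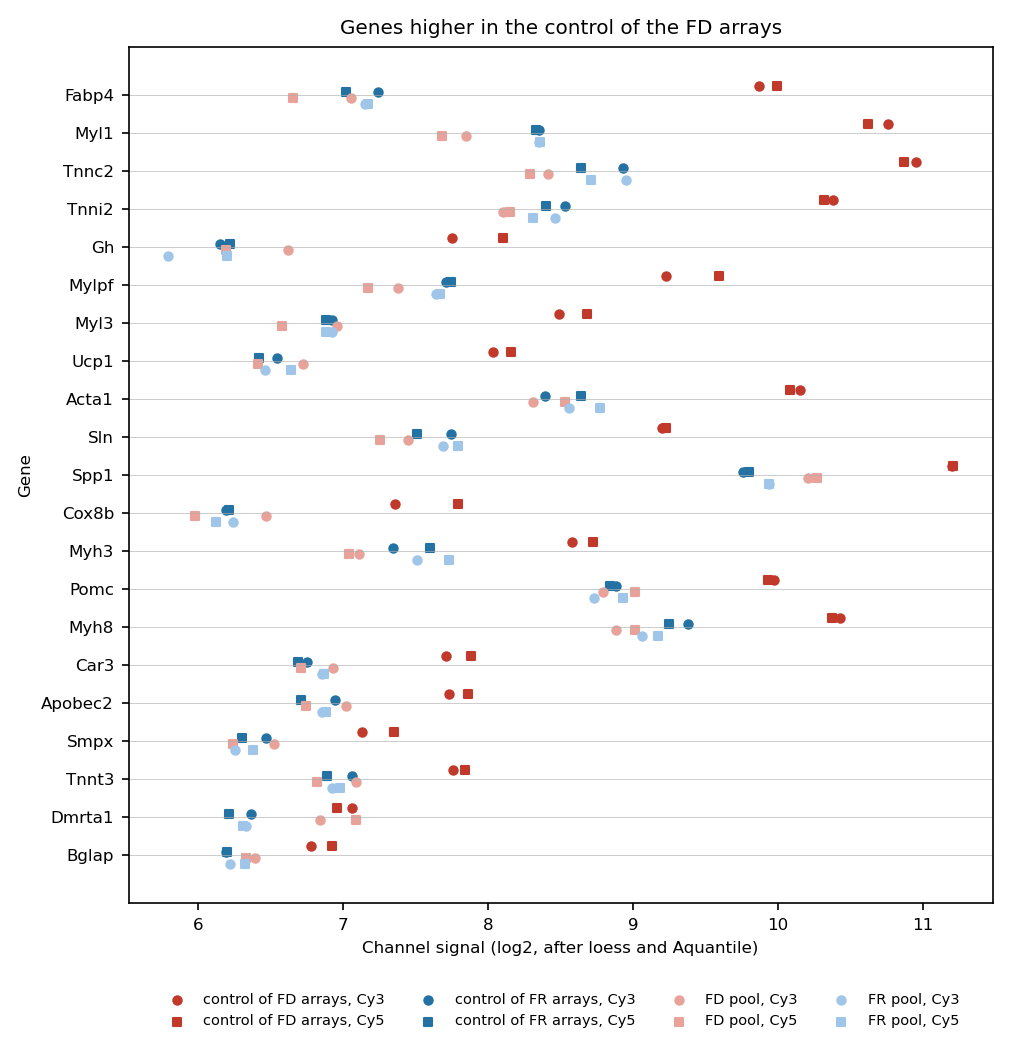
Log2 channel signal of the 21 genes higher in the control of FD, in all 8 channels: circles are Cy3, squares Cy5, dark red the control of FD, dark blue the control of FR, light red the FD pool and light blue the FR pool. For 20 of the genes the control of FD stands apart to the right of the other 3 inputs, and Dmrta1 is the exception.

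Fat genes were few but included the widest difference between the controls. Fabp4 was at 9.87 and 9.99 in the control of FD and 7.24 and 7.02 in the control of FR (2.80 ± 0.17), and its second probe gave 2.70. In the treated channels Fabp4 was at 7.05 and 6.65 in the FD pool and 7.15 and 7.17 in the FR pool, near its level in the control of FR. Ucp1 was at 8.03 and 8.16 against 6.54 and 6.42 (1.61 ± 0.13), and the carbonic anhydrase gene Car3, abundant in adipocytes and muscle, at 7.71 and 7.88 against 6.75 and 6.69 (1.08 ± 0.12). For both genes the control of FD was above the other 3 inputs.

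Of the 30 members of the brown fat and adipocyte list 21 were measured. These 3 were higher and 0 lower, where 0.124% and 0.0882% of all genes were. The list's median was 0.12 (0.08 in Cy3 and 0.13 in Cy5). The count of higher members was 5 with median centring, 5 with centring after loess, 6 with the scanner's processed signals and 1 with a mean log2 signal of at least 8. Cidea, a lipid droplet protein of brown fat, differed by 0.66 and 0.54 and Gpd1, a glycerol phosphate dehydrogenase, by 0.52 and 0.64, each under 1.5-fold in 1 dye. The adipocyte transcription factors Pparg and Cebpa differed by 0.00 and -0.07 in the mean. Adipoq, Cfd, Lep and Retn, which encode secreted products of fat, were not well above background in all 4 control channels. Adiponectin, Adipoq, was well above background in the control of FD alone, at 6.65 and 6.74. It was at least 1.51-fold above the control of FR in the mean, though not by 1.5-fold in both dyes. Adipoq was picked by this detection, so its direction is no separate result. Detection in 1 control alone held for 12 genes in the control of FD and 259 in that of FR. The list's median in the treated channels was -0.03, with 0 of 21 members past 1.5-fold, where 0.391% of all genes passed.

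Bone genes gave 2 of 17 measured members higher and 0 lower, where 0.124% and 0.0882% of all genes were. The higher count was between 1 and 5 under the other settings tried. Spp1, which encodes osteopontin, was at 11.20 and 11.21 in the control of FD against 9.76 and 9.80 (1.43 ± 0.02). Its levels in the treated channels, 10.21 and 10.27 in the FD pool and 9.94 in both channels of the FR pool, lay between those of the controls. Bglap, which encodes osteocalcin of osteoblasts, was at 6.78 and 6.92 against 6.19 and 6.20 (0.66 ± 0.07), close to the threshold and to background.

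The collagenase gene Mmp13 was well above background in the control of FD alone and at least 1.64-fold higher there, with 6.65 and 6.78 against 6.02 and 5.99. Mmp13 was picked by this detection, so its direction is no separate result. Detection in 1 control alone held for 12 genes in the control of FD and 259 in that of FR. The collagen gene Col1a1, expressed by osteoblasts and fibroblasts, differed by 0.55 and 0.49 and did not pass. In the treated channels Col1a1 differed the other way, by -0.89 in Cy3 and -0.73 in Cy5. Ibsp, bone sialoprotein, differed by 0.04 in Cy3 and 0.82 in Cy5, and the osteoblast transcription factors Sp7 and Runx2 by -0.14 and 0.13 in the mean. The bone median was 0.13 (0.07 in Cy3 and 0.23 in Cy5). Cartilage genes gave 0 of 14 past 1.5-fold, where 0.212% of all genes passed, and a median of -0.03.

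Pituitary genes gave 2 of 13 measured members higher and 0 lower, where 0.124% and 0.0882% of all genes were. The list's median was -0.02 (-0.14 in Cy3 and 0.03 in Cy5). It turned positive, up to 0.12, under 3 of 6 other normalisations and background corrections. Gh was at 7.75 and 8.10 in the control of FD and 6.15 and 6.22 in the control of FR (1.75 ± 0.14). The FD pool was at 6.62 in Cy3 and 6.19 in Cy5, and the FR pool at 5.79 and 6.20, so the treated difference of Gh was 0.84 in one dye and -0.01 in the other. Pomc, the precursor of adrenocorticotropic and melanocyte-stimulating hormones, was at 9.97 and 9.93 against 8.88 and 8.84, a difference of 1.09 in each dye. Pomc in the treated channels, at 8.79 and 9.01 in the FD pool and 8.73 and 8.93 in the FR pool, was near the control of FR.

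Cga, the subunit shared by glycoprotein hormones, differed by 0.40 and 0.25 and did not pass. Prl and Tshb, which encode prolactin and the thyrotropin beta subunit, were not well above background in all 4 control channels. The transcription factor gene Lhx4, which acts early in pituitary development, differed by -0.51 and -0.28. Pomc was also the only 1 of 21 measured members of the hypothalamus and neuroendocrine list to pass, where 0.212% of all genes did. That list had a median of 0.05, with Ghrh, the growth hormone-releasing hormone gene, at -0.27 and -0.30 and Pmch, the melanin-concentrating hormone precursor gene, at 0.15 and 0.28.

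Outside the tissue lists 3 genes were higher, and they are named here after their values were seen. Apobec2, a cytidine deaminase family member of skeletal and heart muscle, was at 7.73 and 7.86 against 6.94 and 6.71 (0.97 ± 0.18). Smpx, a small muscle protein, was at 7.13 and 7.35 against 6.47 and 6.30 (0.86 ± 0.19). Dmrta1, a transcription factor gene of the developing telencephalon, was at 7.06 and 6.96 against 6.36 and 6.21 (0.73 ± 0.03). Dmrta1 alone had a like difference in the treated channels, 0.65 in the mean, with 6.84 and 7.09 in the FD pool and 6.33 and 6.31 in the FR pool.

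The higher genes were chosen for being higher, so their common direction is no separate result, and shared control was not tested. Promoters of 4 of these genes are shown here. They were taken from RefSeq (assembly GRCm38.p6) as the 250 bases upstream of the annotated start: chr1:66945057-66945306 (minus strand) for Myl1, chr8:123894776-123895025 (minus) for Acta1, chr7:127211358-127211607 (plus) for Mylpf and chr12:3954695-3954944 (plus) for Pomc. Capitals mark TATAAA, the core of the TATA box (TTTATA on the other strand), CAGCTG, an E-box of the kind that muscle regulatory factors bind, and the CArG box, to which serum response factor binds.
Myl1: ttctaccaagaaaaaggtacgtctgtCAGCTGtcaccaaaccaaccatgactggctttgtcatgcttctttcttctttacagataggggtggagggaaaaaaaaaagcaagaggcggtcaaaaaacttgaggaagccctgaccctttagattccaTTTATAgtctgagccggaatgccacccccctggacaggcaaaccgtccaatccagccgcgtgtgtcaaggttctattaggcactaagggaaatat
Acta1: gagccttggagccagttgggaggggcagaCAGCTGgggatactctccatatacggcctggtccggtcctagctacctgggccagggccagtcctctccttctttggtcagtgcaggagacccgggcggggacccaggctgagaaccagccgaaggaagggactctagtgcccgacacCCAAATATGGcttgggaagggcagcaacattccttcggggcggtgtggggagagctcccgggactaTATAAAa
Mylpf: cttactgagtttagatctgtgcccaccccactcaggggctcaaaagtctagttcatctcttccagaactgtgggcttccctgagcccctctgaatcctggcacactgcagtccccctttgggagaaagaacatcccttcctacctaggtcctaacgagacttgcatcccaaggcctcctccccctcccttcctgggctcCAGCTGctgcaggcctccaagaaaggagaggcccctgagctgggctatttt
Pomc: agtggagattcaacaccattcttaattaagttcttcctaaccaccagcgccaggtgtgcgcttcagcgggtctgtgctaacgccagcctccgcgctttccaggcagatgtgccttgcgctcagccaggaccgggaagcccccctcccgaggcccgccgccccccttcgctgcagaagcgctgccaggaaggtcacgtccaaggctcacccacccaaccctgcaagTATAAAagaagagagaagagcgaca

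Sequences were matched for 15 of the 21 higher genes, with 16 promoters, and both strands were searched. TATAAA occurred in 8 of the 16 (50%), against 12.4% of all 32851 promoters in the table and 8.01% of those of the genes measured. CAGCTG occurred in 6 (37.5%), against 13% and 12.8%, the CArG box in 2 (12.5%), against 1.47% and 1.22%, and the MEF2 motif, which can share letters with TATAAA, in 1 (6.25%), against 2.92% and 1.75%. Among the 8 promoters of higher skeletal muscle genes, 4 held TATAAA and 4 held CAGCTG. For the lower genes 7 promoters of 5 genes were matched, of which 1 held TATAAA and 1 CAGCTG. A match of letters is a description and not a binding site.

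The 15 genes lower in the control of FD were dimmer and differed less. Their median difference was -0.68, and their mean log2 signals ran from 6.86 to 9.22 with a median of 7.16, against 8.10 for all genes. The beta-defensin gene Defb3, which encodes an antimicrobial peptide, was at 6.47 and 6.90 in the control of FD and 7.44 and 7.85 in the control of FR, 1.94-fold lower in the former. Terc, the RNA template of telomerase, was at 6.78 and 6.87 against 7.56 and 7.50 (1.63-fold). Prph, which encodes peripherin, an intermediate filament of peripheral and some brainstem neurons, was at 7.92 and 7.91 against 8.51 and 8.53 (1.52-fold). Oscar, an immunoglobulin-like receptor of osteoclasts, was 1.68-fold lower, the protease inhibitor gene Serpina3m 1.58-fold and the tight junction gene Cldn14 1.56-fold. Adgrf3, an adhesion G protein-coupled receptor gene, and Fhl3, a LIM-domain gene, differed by -0.75 and -0.60. The remaining 7 carried no gene symbol.

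In these 15 the treated channels showed the same direction. Defb3 was at 6.85 and 6.53 in the FD pool and 7.64 and 7.65 in the FR pool, and its difference was -0.95 in the controls and -0.95 in the treated pools. For 9 of the 15 the treated difference was also at least 1.5-fold lower in both dyes, where 39 of 17411 genes (0.224%) passed in that direction, 29 (0.167%) in the other and 68 (0.391%) in either. The median treated difference of the 15 was -0.70. Prph and the transcript listed as AK082545, named after its values were seen, had smaller treated differences of -0.32 and -0.50. A difference of both inputs of an array and a difference of the array itself cannot be told apart here.

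**Figure D3:**
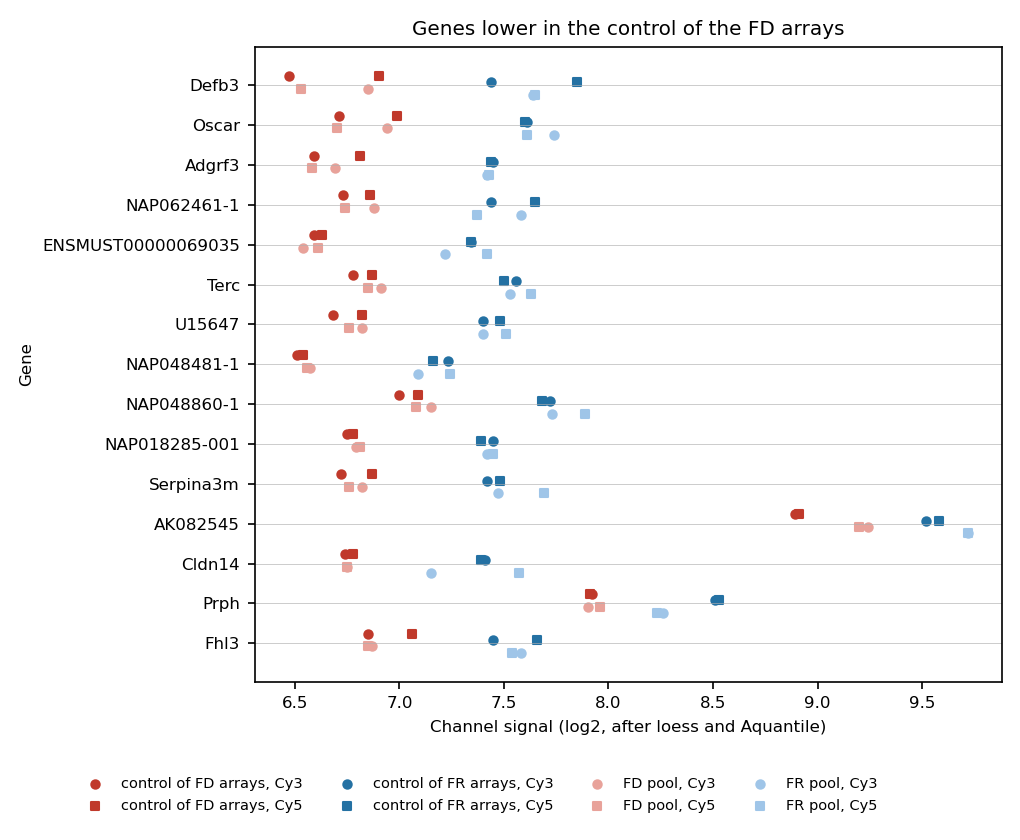
Log2 channel signal of the 15 genes lower in the control of FD, in all 8 channels, with symbols and colours as for the higher genes. Both inputs of the FD arrays (red) lie left of both inputs of the FR arrays (blue) in all 15 genes, and the axis spans a narrower range than for the higher genes.

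The 21 higher genes had no such shift in the treated channels. Their median difference was 1.43 between the controls and -0.04 between the treated pools. In the treated channels 4 of the 21 were above 0 in both dyes, 9 were below 0 in both and 8 differed in sign between dyes. Those 9 were Fabp4 and the muscle genes Myl1, Tnnc2, Tnni2, Mylpf, Acta1, Sln, Myh3 and Myh8, with mean differences from -0.59 for Myl1 to -0.17 for Myh8. The 4 were Spp1 at 0.30, Pomc at 0.07, Bglap at 0.09 and Dmrta1 at 0.65.

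**Figure D4:**
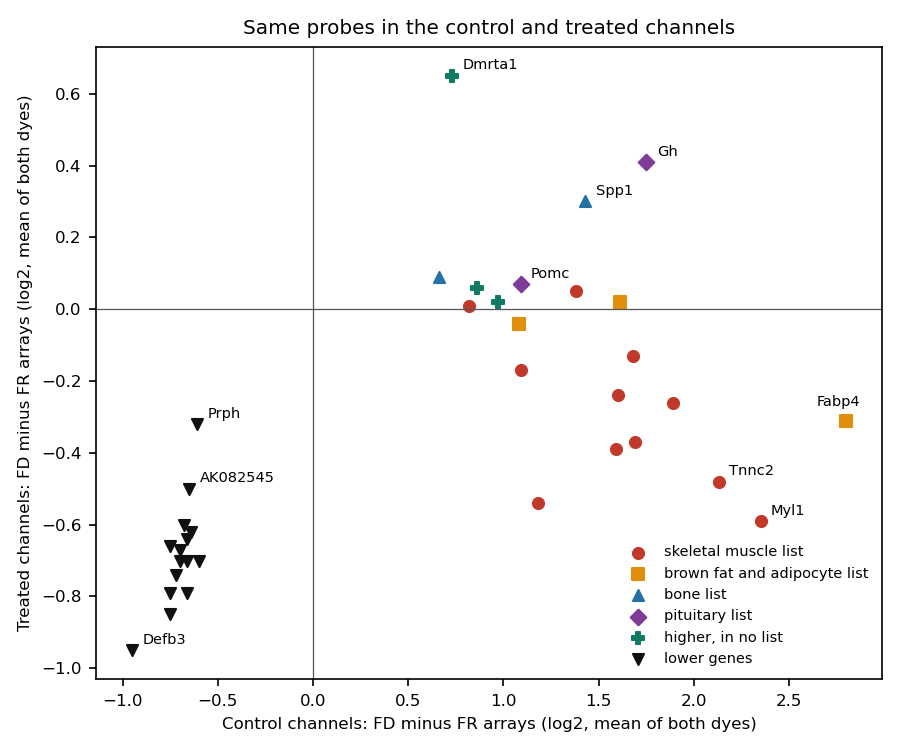
Difference between FD and FR arrays for the 36 genes past 1.5-fold, control channels on the horizontal axis and treated channels on the vertical, both as the log2 mean of both dyes. The higher genes spread from 0.66 to 2.80 on the horizontal axis and mostly near or below 0 on the vertical, whereas the lower genes lie below 0 on both.

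Neuronal genes of the labelled tissue were present: 25 of 31 pan-neuronal and cortical projection neuron markers were measured in all 4 control channels, with a mean log2 signal between 9.75 and 9.89 and a median difference of 0.04. The pan-neuronal list and those of GABAergic neurons, progenitors, astrocytes and oligodendrocytes gave 0 genes past 1.5-fold, where 0.212% of all genes passed. In the hypothalamus and neuroendocrine list 1 of 21 measured members passed, Pomc. Medians were near 0, at 0.03 for GABAergic and striatal neurons and -0.03 for neural progenitors. Astrocytes and radial glia had a median of 0.07 and the oligodendrocyte lineage one of -0.02. The negative medians of progenitors and the oligodendrocyte lineage turned positive under 3 of 6 other normalisations and background corrections. Of 35 lists, 29 had no member past 1.5-fold, with medians from -0.16 to 0.21. At the share of all genes that passed, lists of this size would seldom hold any, so a count of 0 says little. Skin had a median of -0.09, meninges 0.02, choroid plexus -0.03 and erythroid genes 0.05. The 4 measured sex-linked genes had a median of -0.05, with mean differences from -0.35 to 0.05. Among them the Y-linked Ddx3y differed by 0.08 and 0.02 and Kdm5d by -0.07 and 0.00. Xist was not well above background in all 4 control channels.

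**Figure D5:**
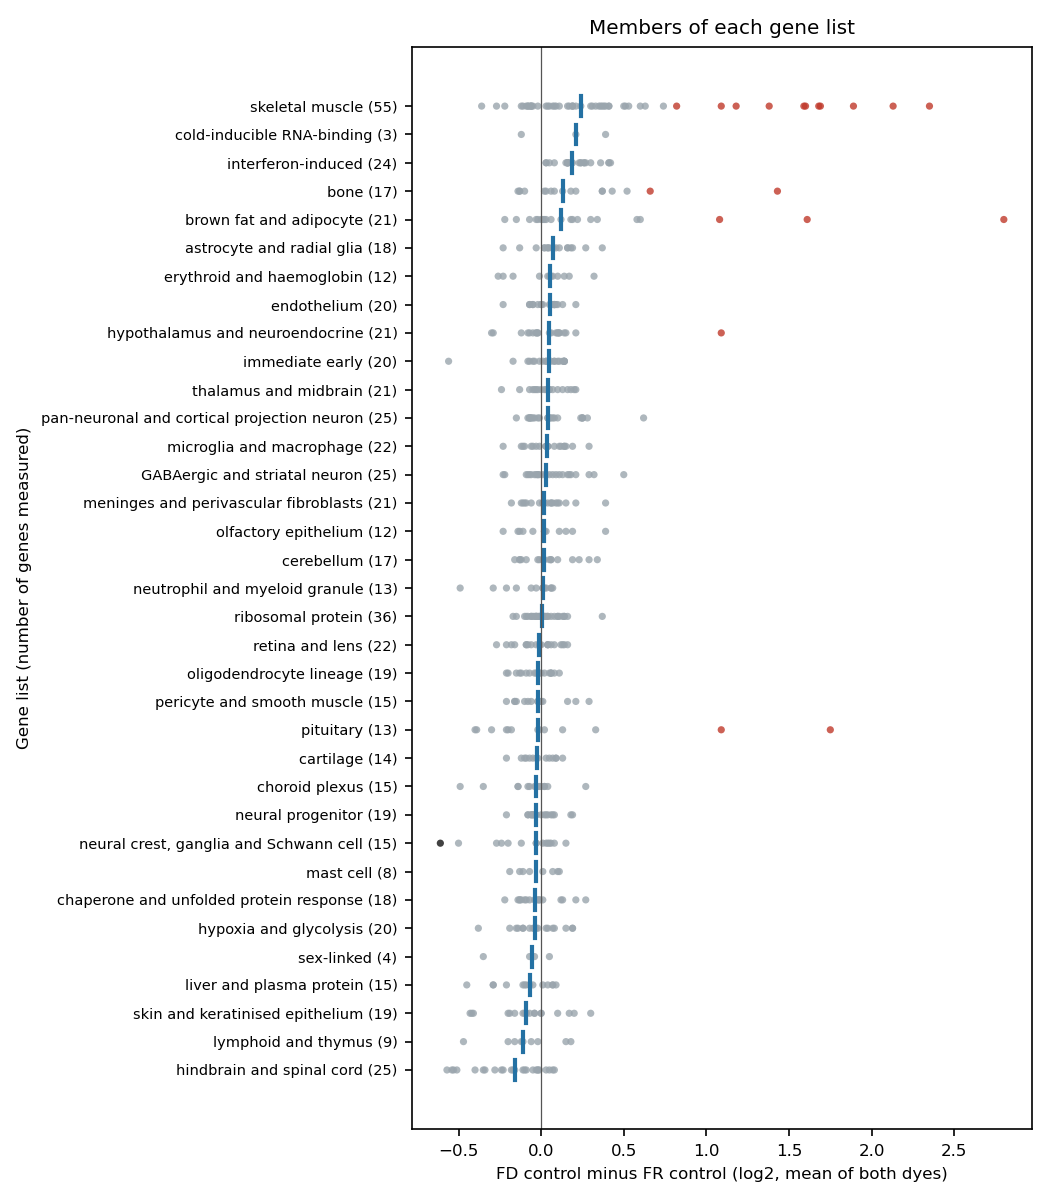
Log2 difference, control of FD minus control of FR (mean of both dyes), for the measured members of 35 gene lists: 1 point per gene, red where higher and black where lower by at least 1.5-fold in both dyes, grey otherwise, with a blue bar at each list's median. Skeletal muscle is at the top with a median of 0.24 and 11 red points, and the hindbrain and spinal cord list is at the bottom with a median of -0.16 and no coloured point.

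Genes of the hindbrain and spinal cord formed the list with the lowest median, -0.16 (-0.16 in Cy3 and -0.12 in Cy5). In this list 0 of 25 members passed 1.5-fold, where 0.212% of all genes did. Of its members 18 were below 0 in both dyes and 3 above, against 34.9% and 34.1% of all genes. The Hox genes, which pattern the body axis from the hindbrain backwards, had the widest differences. Hoxb7 differed by -0.57 in each dye. Hoxa7 was at 6.75 and 6.73 in the control of FD and 7.39 and 7.18 in the control of FR, differences of -0.64 and -0.44. Hoxc6 differed by -0.53 and -0.54 and Hoxa5 by -0.60 and -0.42. The treated channels gave a median of -0.19 for this list and differences for Hoxb7 of -0.60 and -0.55. Under the 6 other normalisations and background corrections the list's median between controls ran from -0.30 to -0.11.

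Interferon-induced genes, which respond to antiviral signalling, had 0 of 24 members past 1.5-fold but a median of 0.19. In 22 members the difference was above 0 in both dyes and in 0 below, against 34.1% and 34.9% of all genes. Rsad2, an antiviral enzyme gene, was at 7.29 and 7.40 against 6.96 and 6.89, Isg15, a ubiquitin-like modifier gene, at 8.17 and 8.17 against 7.80 and 7.71, and Oasl2 at 7.88 and 7.91 against 7.38 and 7.59. In the treated channels the median of this list was 0.41, with 7 of 21 members higher, where 0.167% of all genes were. Under those 6 alternatives the median between controls ran from 0.16 to 0.33. For both lists the direction was thus the same in the control and treated channels of the arrays, and the part that array-wide differences have in them was not tested.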

How the data were processed

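Each deposited file comes from a scanner and holds values from Agilent Feature Extraction 9.5.3.1, named in the submitters' processing notes. For every spot it lists 2 intensities per channel, green (Cy3) and red (Cy5), that are uncorrected per the file headers. These are the mean over the spot's pixels and the median of its local background. Flags of 0 or 1 mark signal well above background and outlier spots. The files also hold the scanner's processed intensity, per the file headers, used as an alternative. The authors' deposited ratio table cannot give a control channel and was not used here.

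Intensities were corrected with normexp (offset 50), normalised by loess within and Aquantile between arrays in limma 3.58.1 under R 4.3.3, and split into single channels. Spots whose local background exceeded 2 times the array median (3 on FD 1, 44 on FR 2), control spots (weight 0 in loess) and outlier-flagged spots were left out. Spots of a probe were averaged. A probe was well above background when over 0.5 of its spots were, and of several measured probes of a gene the brightest was taken. Over 245 probes with repeated spots, the median SD between spots was 0.111 and 0.0782 on the log2 scale in the FD control channels and 0.115 and 0.0783 in those of FR. Arrays give no counting depth, and their number limits the precision. Of 41174 probes, 26910 got their gene name by sequence identifier from the RefSeq table (GRCm38.p6, names only), 816 by a former and 5088 by a present symbol, and the other 8360 carry the name in the array file.

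A gene passed at 1.5-fold or more in the same direction in both dyes. With 1 pool per input no test was made. The calculation was tested on simulated data. Alternatives changed the normalisation, background correction, filters, probe choice, threshold and array used. Named genes were the 15 with the highest and the 15 with the lowest mean difference among those that passed, leaving out names other than gene symbols, every list member that passed, up to 4 members per list by size of difference, up to 5 genes per direction for detection in 1 control, and any measured gene of the muscle, fat, bone and pituitary lists. Members and lists were chosen with earlier results of these data known.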

Additional observations from a re-analysis of the deposited data

How the results depend on the processing

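The 21 higher genes depended little on the normalisation and background correction: 18 to 21 of them passed under each of the 6 alternatives, the ones lost being Bglap, Dmrta1 and Smpx. The lower genes depended on it strongly. Against 36 genes (21 higher, 15 lower, 58.3% higher), the scanner's processed signals gave 659 (64 higher, 595 lower, 9.71% higher), normexp on all spots 20 (19 higher, 1 lower, 95%) and a 2-fold threshold 15 (15 higher, 0 lower). The lower count was 9 beside 18 higher after quantile normalisation within dye (66.7% higher), 4 beside 22 after median centring without loess (84.6%), and 26 beside 23 without background correction (46.9%). Median centring after loess gave 26 higher and 13 lower (66.7% higher). Of the 15 lower genes, 1, Defb3, passed with normexp on all spots, 3 with median centring, 4 with quantile normalisation and 14 with the scanner's signals. The causes were not tested. Centring after loess moved the Cy5 median of all genes to 0.12 and the scanner's signals to 0.13. One array pair alone gave 108 to 299 genes (46 to 212 higher, 62 to 87 lower), since agreement of the dyes was then not required. After the data were seen, a minimum mean log2 signal of 8 was added, which left 13 genes (11 higher, 2 lower), as was leaving out genes that passed the same way in the treated channels, which left 6 lower and 21 higher. The skeletal muscle list counted between 8 and 19 higher members under these settings, against 11, and some of the 19 were not among the 11. Between treated channels, 68 genes (29 higher, 39 lower) became 113 (103 and 10) with median centring, 110 (77 higher) with centring after loess, 1100 (245 and 855) with the scanner's signals, 13 (3 and 10) with normexp on all spots and 3 (1 and 2) at 2-fold, and one array pair gave 184 to 211 (69 to 84 higher, 115 to 127 lower). Of the alternative values of named genes, 366 kept their call, 45 did not pass and 0 changed sign. Part of the 366 was fixed in advance. A change of filter mostly left a gene's value as it was, and either array pair alone passes every gene past in both dyes. The 366 is therefore not a measure of how stable the calls were. No paired analysis was possible because the comparison has no test, and each difference was already taken between arrays of equal dye. Dim signal limits what can be read: 10 of the 21 higher and 13 of the 15 lower genes had a mean log2 signal under 8, and below background only a bound can be given.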

Other observations

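Detection itself was uneven between the control channels of the FD and FR arrays. Over all spots, the share well above background was 71.4% on FD 1 and 75.6% on FR 1 in Cy3. In Cy5 it was 81.0% on FD 2 and 85.3% on FR 2. The part of this array-wide excess on FR in the counts that follow was not tested. Well above background in both control channels of the FD arrays and in neither of the FR arrays were 12 genes, of which Mmp13 was at least 1.5-fold higher in both dyes. The reverse held for 259 genes, none of them by 1.5-fold in both dyes, and these included the Hox gene Hoxb9, at 6.08 and 5.93 in the control of FD and 6.52 and 6.38 in the control of FR.

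The 10 spike-in probes, whose RNA is added during labelling, were lower in the control channels of the FD arrays than in those of the FR arrays, by a median of -0.57 in Cy3 (range -0.60 to -0.31) and -0.90 in Cy5 (range -1.17 to -0.64). In the treated channels the same median was 0.11 in Cy3 and -0.36 in Cy5. The control medians were near the 1.5-fold threshold of 0.58 in Cy3 and past it in Cy5, in the direction of the lower genes. Whether the lower genes share this shift was not tested.

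Probes rich in G and C leaned one way in all channels. The 2780 genes whose probe had over 50% G and C had medians of -0.08 (Cy3) and -0.06 (Cy5) between the controls and -0.09 and -0.05 between the treated pools. The 481 genes at or below 30% had medians of 0.05 and 0.07 and of 0.10 and 0.01. Probes of the higher genes had a median of 45% and those of the lower genes 46.7%, against 41.7% for all genes.

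Some differences seen in 1 dye of the controls appeared in both channels of the same pair of arrays. Elavl3 differed by 1.25 in the Cy3 control channel and by 1.17 in the Cy5 treated channel, which are the channels of FD 1 and FR 1, and by -0.01 and 0.00 in the channels of FD 2 and FR 2. The erythroid carbonic anhydrase gene Car1 differed by 1.04 in the Cy3 control channel and 0.93 in the Cy5 treated channel, and by -0.40 and -0.39 in the others.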
